A study of Homo sapiens with 8 samples.

Results

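NT5E, the gene of the cell surface enzyme CD73, and 9 further genes of the extracellular adenosine pathway were followed over the 4 groups of a breast cancer cell experiment. The members were taken by gene symbol (NT5E, ENTPD1, ENTPD2, ENTPD3, ADA, ADK, ADORA1, ADORA2A, ADORA2B and SLC29A1) from the 20219 gene symbols of the array, and each of the 10 was measured by 1 feature. NT5E was chosen because it was already known to be lower in IL13RA2-knockdown cells with IL-13 than in mock-treated control cells, so its levels are given as a description without a test. The other 9 members stand for the rest of the pathway and were tested. The cells were MIV-Luc, which are MCF10CA1a breast cancer cells with a luciferase gene; MCF10CA1a is a metastatic derivative of the MCF10A mammary epithelial line. They carried a stably integrated pLKO lentiviral hairpin, either scrambled (shSCR) or directed against the decoy receptor IL13RA2 (shIL13RA2), and each line was kept without IL-13 (mock) or received the cytokine at 20 ng/ml over 16 h. Of every construct and treatment 2 biological replicates were hybridized, giving 4 groups and 8 arrays (A and B in each group). Each line was made with 1 hairpin, so off-target effects of the hairpin cannot be told apart from loss of the receptor. According to the growth protocol, every group shared a medium with horse serum, insulin, EGF, hydrocortisone and cholera enterotoxin, a toxin that keeps the stimulatory G protein of cyclic AMP signaling active.

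Extracellular ATP released by stressed or dying cells is trimmed to AMP by the ENTPD ectoenzymes, and CD73 then removes the last phosphate to give adenosine. Adenosine acts on G protein-coupled receptors, of which ADORA2A and ADORA2B raise cyclic AMP and ADORA1 lowers it, and it is cleared by uptake through the transporter SLC29A1, by phosphorylation through ADK and by deamination through ADA. In tumors the pathway is known for dampening T cell responses, and CD73 is known as a surface marker of basal-like breast cancer cells.

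The sequences upstream of NT5E and ADORA2B, the members with the largest mean effects of the hairpin, are shown for orientation. They are the 250 bases before the RefSeq start of each gene on build GRCh38.p14, for NT5E at chr6:85449833-85450082 and for ADORA2B at chr17:15944880-15945129, both on the plus strand and written 5′ to 3′. Capitals mark the GC box GGGCGG or its reverse complement CCGCCC.
NT5E: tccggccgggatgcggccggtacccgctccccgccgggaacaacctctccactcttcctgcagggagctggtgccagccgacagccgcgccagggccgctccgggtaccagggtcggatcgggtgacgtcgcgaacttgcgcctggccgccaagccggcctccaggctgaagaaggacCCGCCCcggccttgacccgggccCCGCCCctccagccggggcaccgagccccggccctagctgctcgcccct
ADORA2B: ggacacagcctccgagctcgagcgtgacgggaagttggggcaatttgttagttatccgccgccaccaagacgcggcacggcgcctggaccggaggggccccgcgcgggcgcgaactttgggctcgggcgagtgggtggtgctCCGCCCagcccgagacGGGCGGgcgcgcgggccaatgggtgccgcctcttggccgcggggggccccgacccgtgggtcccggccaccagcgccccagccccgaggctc
The GC box binds SP1-type factors. Each window held 2 of them, a motif present in 42.6% of the 35116 promoter windows of the same length. The STAT6-type palindrome, TTC and GAA with 4 bases between them (5.38% of windows), the palindrome with 1 base less, bound by other STAT factors (6.57%), the cyclic AMP response element TGACGTCA (1.65%) and the hypoxia response core ACGTG (18.5%) were searched on both strands and had 0 matches in either window. These letter matches are descriptions of the windows shown.

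The values are log2 expression after the authors' RMA normalization, and 29141 features were tested. Array medians lay between 5.02 and 5.06, and Pearson's r across features was 0.992 to 0.993 within groups and 0.988 to 0.993 between groups. IL13RA2 had log2 levels of 8.07 and 8.09 in mock-treated shSCR cells and 6.52 and 6.34 in mock-treated shIL13RA2 cells, and with IL-13 9.36 and 9.33 in shSCR and 8.23 and 8.15 in shIL13RA2 cells. It was thus lower with the hairpin under both treatments. All 11 basal mammary epithelial marker genes had means above the median of the 2904 negative control features (4.19), and their summed level, as a mean per array, was 8.21 to 8.49. Some luminal genes were also present. Of 7 such genes 6 had means above that median on at least 1 feature, KRT8 the brightest (10.1). The mean of the 7 per array was 6.47 to 6.75. The hormone receptor genes of this list were near the median or below it, ESR1 with means of 4.25 and 3.91 on its features and PGR with 3.20. The same mean was at most 4.64 for 7 leukocyte genes and 4.39 for 6 fibroblast genes, and for PTPRC, the pan-leukocyte marker, 84.8% of negative controls were brighter. Of the leukocyte genes 4 and of the fibroblast genes 4 had means above the negative control median, CD68 the brightest of them (6.99). Among the endothelial genes CDH5 and VWF were near the negative control median (means 4.55 and 3.85), while PECAM1 was bright (mean 8.25).

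NT5E was lower in each step from mock-treated shSCR cells to IL-13-treated shIL13RA2 cells. Its log2 levels were 9.67 and 9.72 in mock-treated shSCR cells, 9.37 and 9.34 in shSCR cells with IL-13, 8.84 and 8.79 in mock-treated shIL13RA2 cells, and 8.31 and 8.36 in shIL13RA2 cells with IL-13. No array of one group overlapped with an array of another, and the SD within groups was 0.02 to 0.04 (n = 2 each), smaller than every gap between neighbouring groups in this order. For a single pair of groups, 36.4% to 41.5% of all features were separated. NT5E was chosen on these arrays, so its separation is a description. CD73 is the enzyme that makes adenosine from AMP outside the cell. With IL-13 the log2 fold change of NT5E was -0.35 in shSCR cells and -0.48 in shIL13RA2 cells, each with a standard error of 0.10 from limma. In such bulk RNA, fewer cells with NT5E RNA and less of it per cell cannot be told apart. Between the hairpins the log2 fold change was -0.89 without IL-13 and -1.02 with IL-13 (standard error 0.10 each). Both together gave -1.37 (standard error 0.10), a 2.58-fold lower level, which is the value NT5E was chosen on. All these comparisons share arrays, so they are not independent of that choice. On average over both treatments, NT5E was 1.94-fold lower with the hairpin, and on average over both constructs 1.33-fold lower with IL-13.

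Each of 2 further contrasts puts no net weight on the difference NT5E was chosen on, so NT5E was tested in them. They still share the estimate of the spread with that comparison, and the choice may have favored a small spread. NT5E had an SD within groups of 0.02 to 0.04, beside a median of 0.10 over all features. The p-values are thus not independent of the choice. The interaction asks whether the combined effect departs from the sum of the single ones on the log2 scale. It was -0.13 for NT5E (standard error 0.14, 95% confidence interval -0.46 to 0.20, adjusted p = 0.993 from limma over all features), so a departure from additivity was not detectable. For this term 0% of all features were called at an adjusted p under 0.05 and 4.47% had an unadjusted limma p under 0.05, which 0 of the 10 members had. The second contrast sets mock-treated shIL13RA2 cells against IL-13-treated shSCR cells. It was chosen after the values were seen, so its p-values are a description. NT5E was lower with the hairpin alone than with IL-13 alone by a log2 difference of -0.54 (standard error 0.10, 95% confidence interval -0.77 to -0.31). The 4 arrays were separated in that direction, as they were for 23.2% of all features. The unadjusted limma p was 0.000673 and the adjusted p 0.0986, so the difference missed the threshold after adjustment. Of the 10 members 0 were called in this contrast (0.209% of features were), and 1, NT5E, had an unadjusted limma p under 0.05 (10.6%). The arrays of 4 of the 9 other members did not overlap (41.5%). Over the alternatives the adjusted p for NT5E ran from 0.00203, with a limma prior that follows intensity and resists outliers, to 0.488.

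**Figure D1:**
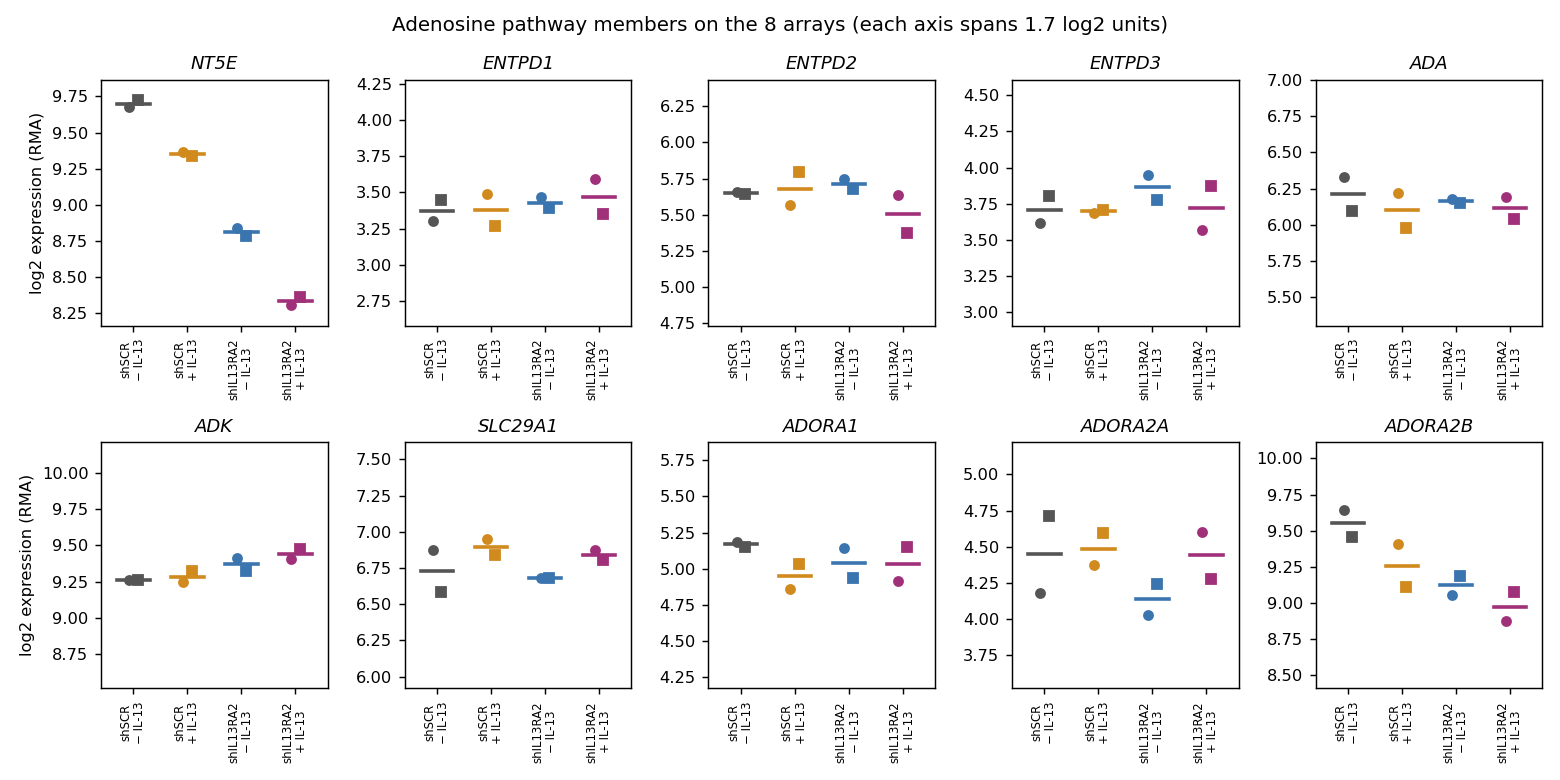
Log2 expression (RMA) of the 10 members on the 8 arrays, by group; circles are array A, squares array B and bars the group mean, and every vertical axis spans the same range. NT5E steps down over the 4 groups without overlap, from 9.70 to 8.33 in group means, ADORA2B follows with a wider spread, and the other 8 members vary by less.

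Among the 9 other members limma called 0 in each of the 5 pairwise comparisons and in both mean effects, at an adjusted p under 0.05 and a fold change above 2. This rule called 0.0583% of all features for IL-13 in shSCR cells, 0.0652% for the hairpin without IL-13, 0.0618% for IL-13 in shIL13RA2 cells, 0.0515% for the hairpin among IL-13-treated cells and 0.154% for both together. For the mean effects it called 0.0927% (IL-13) and 0.0755% (hairpin). At an unadjusted limma p under 0.05, 1 of the 9, ADORA2B, was lower with the hairpin without IL-13 (5.23% of all features were), with both together (4.78%) and in the mean effect of the hairpin (6.03%). Counted in either direction, 9.51%, 9.56% and 11.3% of all features passed there. In the other comparisons 0 of the 9 members had such a p, against 6.79% of features for IL-13 in shSCR cells, 6.93% for IL-13 in shIL13RA2 cells, 7.07% for the hairpin among IL-13-treated cells and 8.73% for the mean effect of IL-13. The methods' one-way analysis of variance with the same fold threshold also gave 0 members in each pairwise comparison, with and without adjustment.

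ADORA2B, the low-affinity receptor that couples adenosine to cyclic AMP, was the member that stood nearest to NT5E. Its log2 levels were 9.65 and 9.46 in mock-treated shSCR cells, 9.41 and 9.11 with IL-13, 9.06 and 9.19 in mock-treated shIL13RA2 cells, and 8.88 and 9.08 with the hairpin and IL-13. Both arrays of mock-treated shSCR cells lay above all other arrays, while the shIL13RA2 groups overlapped with each other. The log2 fold change with the hairpin was -0.43 without IL-13 (standard error 0.14, adjusted p = 0.431) and -0.28 with it (standard error 0.14, adjusted p = 0.764), and with both it was -0.58 (adjusted p = 0.252), all from limma. The mean effect of the hairpin was -0.36 (standard error 0.10, 95% confidence interval -0.59 to -0.12, unadjusted p = 0.00841, adjusted p = 0.267 from limma), a 1.28-fold lower level. Over the alternatives its adjusted p lay between 0.0416, with the intensity-dependent robust prior, and 0.302, with a fold change under 2 throughout. The mean effect of IL-13 was -0.22 (standard error 0.10, adjusted p = 0.604 from limma), with an interval of -0.46 to 0.02.

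Like ADORA2B, the other receptors were not called in any comparison. ADORA2A, which also raises cyclic AMP and is the main adenosine receptor of T cells, had log2 levels of 4.18 and 4.71 in mock-treated shSCR cells, 4.37 and 4.59 with IL-13, 4.03 and 4.24 in mock-treated shIL13RA2 cells and 4.60 and 4.28 with both. With the hairpin the IL-13 arrays lay just above the mock arrays, and the mock-treated shIL13RA2 arrays lay below those of shSCR cells with IL-13, while the other pairs of groups overlapped. Of the negative control features 46.7% had a higher mean, so ADORA2A was near the array's background. ADORA1, the receptor that lowers cyclic AMP, lay between 4.86 and 5.19 on all arrays, with 36.8% of negative controls above it. Its mean effects were -0.11 for IL-13 (95% confidence interval -0.33 to 0.10) and -0.02 for the hairpin (-0.24 to 0.20).

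The ectoenzymes upstream of CD73 were dim. ENTPD1 (CD39), which takes ATP and ADP to AMP, lay between 3.27 and 3.59 on the 8 arrays, and 64.8% of negative controls were brighter. ENTPD3 lay between 3.57 and 3.95 (57.6% of negative controls brighter) and ENTPD2, which acts mainly on ATP, between 5.37 and 5.80 (29.3%). The mean effects on these 3 genes were between -0.09 and 0.09 on the log2 scale, with adjusted p from 0.786 to 0.967 in limma. Their 95% confidence intervals lay between -0.31 and 0.32 for the array values. For ENTPD1 and ENTPD3, whose levels were near the negative controls, these intervals set no limit on a change in RNA.

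The genes that clear adenosine varied little. ADK, the kinase that returns adenosine to AMP, had 9.26 and 9.26 in mock-treated shSCR cells, 9.25 and 9.32 with IL-13, 9.41 and 9.33 in mock-treated shIL13RA2 cells, and 9.41 and 9.48 with both. All 4 shIL13RA2 arrays lay above all 4 shSCR arrays, the nearest pair narrowly. This is a description, since the share of all features separated in this way was not computed. The mean log2 difference was 0.13 (standard error 0.07, 95% confidence interval -0.03 to 0.30, adjusted p = 0.542 from limma). ADA, the deaminase, lay between 5.98 and 6.33, and its mean effects were -0.08 for IL-13 (adjusted p = 0.867) and -0.02 for the hairpin (adjusted p = 0.972 from limma). The transporter SLC29A1 lay between 6.59 and 6.95, and its mean effect of IL-13 was 0.16 (standard error 0.09, adjusted p = 0.664 from limma) with groups that overlapped in shSCR cells.

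**Figure D2:**
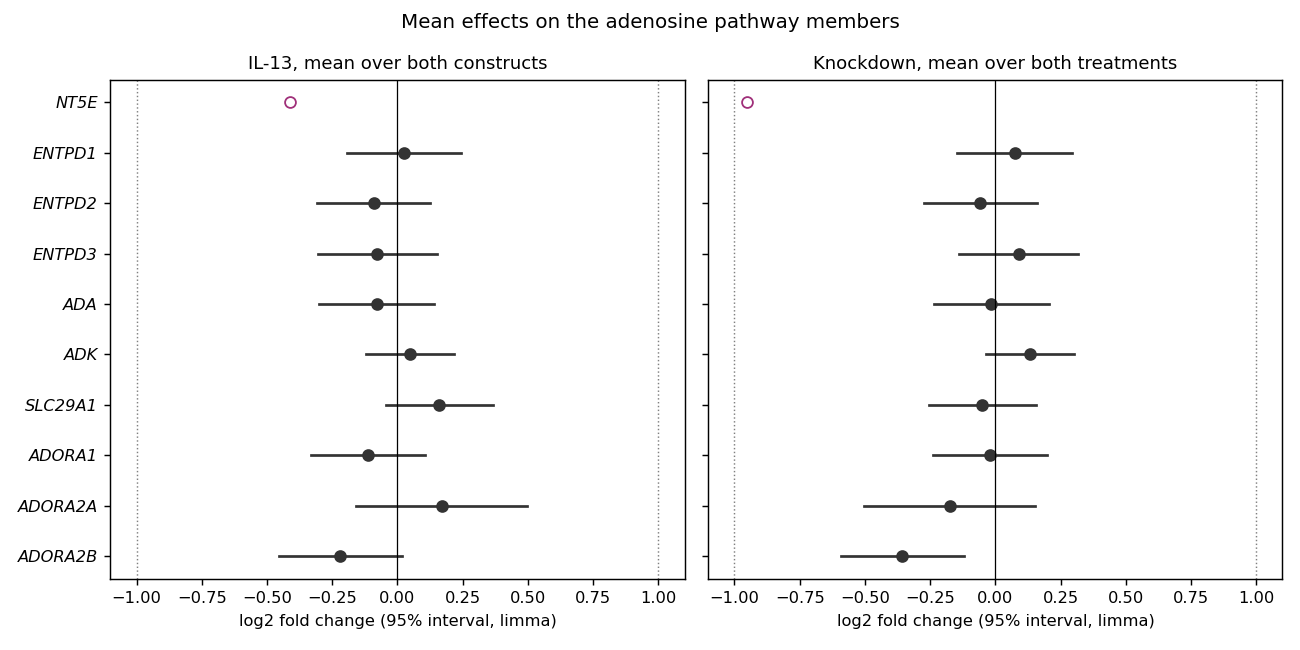
Mean log2 fold change of each member with IL-13 over both constructs (left) and with the hairpin over both treatments (right); points are limma estimates, lines 95% confidence intervals and dotted lines a 2-fold change. NT5E is an open point without an interval because it was chosen on these arrays (-0.41 and -0.95), and of the other 9 intervals that of ADORA2B with the hairpin (-0.59 to -0.12) leaves out 0.

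Over the 9 members other than NT5E the median log2 fold change was -0.08 for the mean effect of IL-13 and -0.02 for that of the hairpin, beside 0.01 and -0.01 over all features. Their arrays did not overlap between groups for 2 of 9 with IL-13 in shSCR cells (36.7% of all features), 4 of 9 with the hairpin without IL-13 (41.2%), 3 of 9 with IL-13 in shIL13RA2 cells (37.4%), 2 of 9 with the hairpin among IL-13-treated cells (36.4%) and 3 of 9 with both (40.3%). These shares are near those of all features. Across the 8 arrays Pearson's r with NT5E was 0.86 for ADORA2B, which 1% of all features exceeded, and -0.89 for ADK, which 99.3% exceeded. The remaining members had r between -0.38 and 0.38. The arrays fall into 4 groups, so these values describe group differences and are no test.

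The 5 genes with the highest r with NT5E over the 8 arrays, as a description, were SERPINB1 (0.997), an inhibitor of neutrophil proteases, STRADB (0.990), a pseudokinase, EPS8 (0.987), an actin regulator downstream of the EGF receptor, DCBLD2 (0.985), a transmembrane protein, and CTSL2 (0.982), a lysosomal cysteine protease. They are named by the symbol the array gives the feature, and the locus of each feature, that of STRADB included, was not checked. SERPINB1 had log2 levels of 10.29 and 10.31 in mock-treated shSCR cells, 10.09 and 10.14 with IL-13, 9.76 and 9.70 in mock-treated shIL13RA2 cells and 9.40 and 9.47 with both. From the brightest to the dimmest array the log2 range was 1.28 for CTSL2 and 0.91 for SERPINB1, but 0.28 for EPS8. The order of the groups was thus shared by genes whose differences varied widely in size.

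**Figure D3:**
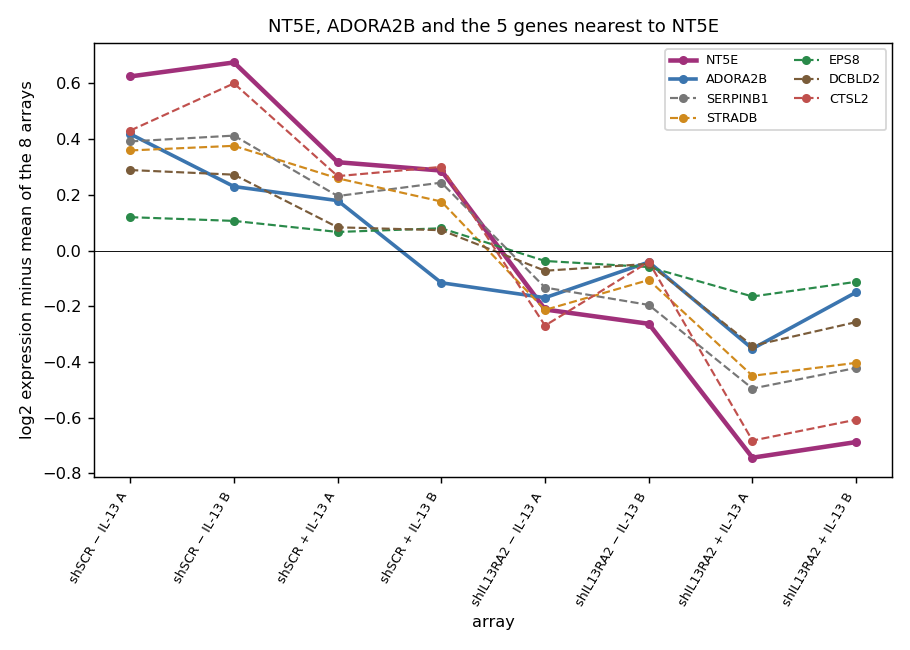
Log2 expression of NT5E, ADORA2B and the 5 genes with the highest r with NT5E, as the difference from each gene's mean over the 8 arrays (horizontal axis: the arrays in group order; lines only join the points of a gene). The 5 genes, with r of 0.982 to 0.997, step down over the groups as NT5E does, with ranges of 0.28 to 1.28 log2 units.

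The wider purine network was described with 6 lists of 90 genes in all, of which 89 had a feature (91 features). Limma called 1 of them in a mean effect, the nucleoside transporter SLC28A3, and 0 in the pairwise comparisons. At an unadjusted limma p under 0.05, 5 features were higher and 1 lower in the mean effect of IL-13 (6.59% of the 91, beside 8.73% of all features). For the hairpin 6 were higher and 4 lower (11%, beside 11.3%). These shares are near those of all features.

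SLC28A3 encodes the concentrative transporter CNT3, which takes up purine and pyrimidine nucleosides with sodium. It rose with IL-13. Its log2 levels were 4.85 and 4.12 in mock-treated shSCR cells, 5.81 and 6.03 with IL-13, 4.81 and 4.85 in mock-treated shIL13RA2 cells, and 5.95 and 5.60 with both. All 4 IL-13-treated arrays were above all 4 mock-treated ones, as a description, since the gene was named by its p in the mean effect of IL-13. The mean effect of IL-13 was 1.19 on the log2 scale (standard error 0.16, 95% confidence interval 0.81 to 1.57, adjusted p = 0.0440 from limma), 2.28-fold in RMA values. The mock-treated arrays, at 4.12 to 4.85, were close to the negative control median of 4.19, so the size of the fold is uncertain. The log2 fold change was 1.43 in shSCR cells (adjusted p = 0.171) and 0.95 in shIL13RA2 cells (adjusted p = 0.441), neither past the threshold alone, and the interaction was -0.48 (standard error 0.33, adjusted p = 0.989 from limma). The hairpin itself gave a mean effect of 0.10 (95% confidence interval -0.28 to 0.48). The call rested on a narrow margin. It was kept when array A of the untreated shSCR line was left out (1.37, adjusted p = 0.0220) and lost without any other array, with a log2 fold change of 1.01 and an adjusted p of 0.0643 without array B of that group, and of 1.10 to 1.28 and 0.126 to 0.205 without one of the other 6, from limma. The 10 transporter and channel genes together had a median log2 fold change of 0.07 for IL-13 and -0.03 for the hairpin, beside 0.01 and -0.01 over all features, with SLC28A2, a related concentrative transporter, at 0.22 for IL-13 (adjusted p = 0.548 from limma).

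Of the 10 intracellular nucleotidases 0 were called by limma. NT5C2, which dephosphorylates IMP and GMP in the cytosol, had log2 levels of 8.41 and 8.35 in mock-treated shSCR cells, 8.65 and 8.61 with IL-13, 8.91 and 8.77 in mock-treated shIL13RA2 cells and 9.01 and 8.85 with both. Its group means stepped up in the order in which those of NT5E stepped down, with a mean effect of the hairpin of 0.38 (standard error 0.08, adjusted p = 0.125 from limma). Among the 15 further ectoenzymes 0 were called. ACPP, a phosphatase that can also turn AMP into adenosine, had 5.25 and 5.22 in mock-treated shSCR cells, 4.95 and 5.04 with IL-13, 4.51 and 4.47 in mock-treated shIL13RA2 cells and 4.45 and 4.91 with both. Its shIL13RA2 arrays all lay below the shSCR arrays, with a mean effect of the hairpin of -0.53 (standard error 0.11, adjusted p = 0.121 from limma). ACPP was named by its p in this effect, so the separation of its arrays is a description. Its shIL13RA2 arrays at 4.45 to 4.51 were close to the negative control median of 4.19, so the size of the difference is uncertain. The list medians were -0.02 for the ectoenzymes and 0.02 for the intracellular nucleotidases in the mean effect of the hairpin.

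Of the 19 genes of cyclic AMP signaling and response 0 were called, and 4 were higher and 0 lower with the hairpin at an unadjusted limma p under 0.05. That was 21.1%, beside 11.3% of all features in either direction and 5.31% in that direction. The 4 genes were PDE4D and PDE4B, phosphodiesterases that break down cyclic AMP, CREB1, the transcription factor of the pathway, and PRKACB, a catalytic subunit of protein kinase A. PDE4D had log2 levels of 5.80 and 5.71 in mock-treated shSCR cells, 5.60 and 5.83 with IL-13, 6.13 and 6.31 in mock-treated shIL13RA2 cells and 6.23 and 6.14 with both. All 4 shIL13RA2 arrays lay above the shSCR arrays, by a mean of 0.47 (standard error 0.09, adjusted p = 0.0961 from limma), a 1.38-fold difference. PRKACB had 7.54 and 7.40 in mock-treated shSCR cells, 8.04 and 8.05 with IL-13, 7.69 and 7.86 in mock-treated shIL13RA2 cells and 8.04 and 8.30 with both. Its IL-13-treated arrays were above all mock-treated ones, with a mean effect of IL-13 of 0.48 (standard error 0.09, adjusted p = 0.152 from limma). PDE4D and PRKACB were named by their p in these mean effects, so the separation of their arrays is a description. The immediate response genes NR4A1, NR4A2 and NR4A3 of the same list were not among those with an unadjusted p under 0.05 in either mean effect. The list median for the hairpin was 0.02. With the intensity-dependent robust prior the adjusted limma p was 0.0264 for PDE4D, 0.0113 for PRKACB, 0.00689 for NT5C2 and 0.0432 for ACPP, each with a fold change under 2.

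**Figure D4:**
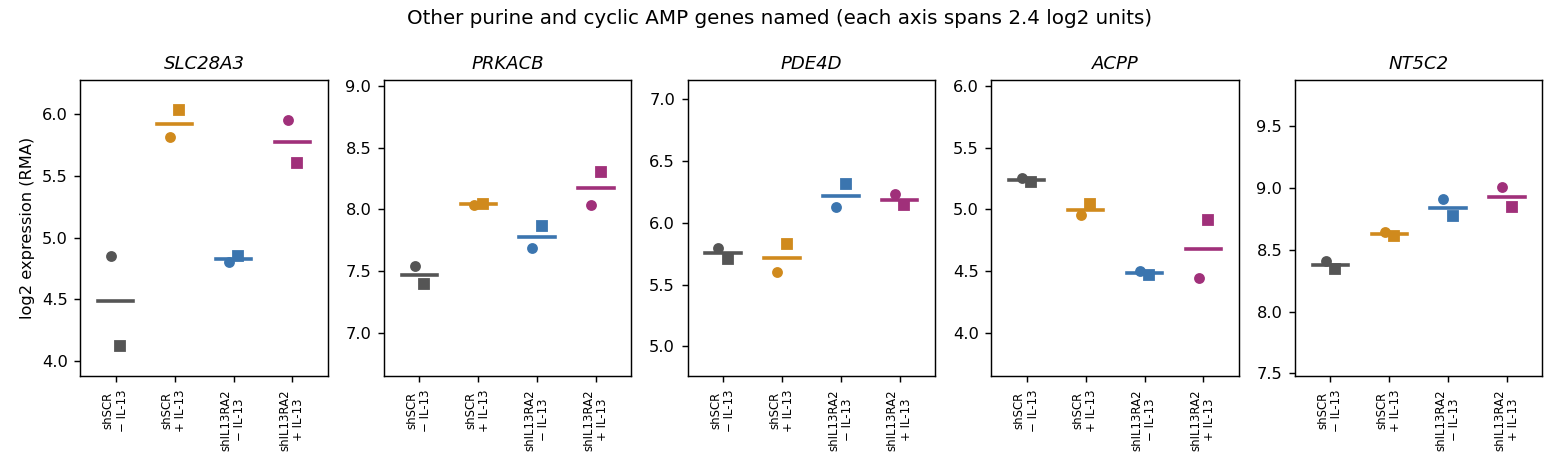
Log2 expression (RMA) of the 5 named genes of the wider purine and cyclic AMP lists on the 8 arrays, by group, drawn as for the members; every vertical axis spans the same range. SLC28A3 is above its mock-treated levels in all 4 IL-13-treated arrays (lowest 5.60 against highest 4.85), and PDE4D is higher in the 4 shIL13RA2 arrays. The genes were named by their p in a mean effect, so these separations are descriptions.

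Of the 20 purine salvage and adenine nucleotide enzymes (22 features) and the 15 other purine receptors with a feature, limma called 0 in either mean effect. In the salvage list 3 features were lower and 0 higher with the hairpin at an unadjusted limma p under 0.05, namely ADSL, AHCY and AK1. That was 13.6%, near the 11.3% of all features in either direction (6.03% were lower). Their adjusted p was 0.325 to 0.403 from limma, and the list median was -0.09 beside -0.01 over all features. Among the receptors 0 had an unadjusted p under 0.05 in either mean effect.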

How the data were processed

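Gene expression was measured in 8 samples on Affymetrix whole-transcript arrays (Human Exon 1.0 ST per the methods). The number of features is that of a gene-level design of the same maker, so which probes make up a value is not settled. The values the authors deposited are log2 expression, 1 value for each gene-level feature, from core exons, made in Affymetrix Expression Console with RMA (background correction, quantile normalization over the arrays, probe summary). RMA compresses differences of dim genes, and 1 value per gene does not separate isoforms. No further normalization was applied. The table holds 33297 features, of which 4156 controls and spike-ins were not tested. Columns were matched to groups by their headings, which carry a running number but no sample number of the labels.

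Group means were fitted over the 8 arrays in limma (version 3.58.1, under R 4.3.3) (4 residual and 3.86 prior degrees of freedom), with Benjamini-Hochberg adjustment over all 29141 features tested, and the calling step was tested on simulated data. A call needed an adjusted p under 0.05 and a fold change above 2, and for the interaction the adjusted p alone. Confidence intervals are 95% intervals from the fit. The number of arrays limits the precision. Negative control features were used to place dim genes; they also carry signal (95th percentile 9.60), so this is no detection call. The members and lists were chosen with earlier results of these data known. Named were the members, IL13RA2, genes of the lists with an unadjusted limma p under 0.01 in a mean effect (at most 5 a list), and the 5 symbols most correlated with NT5E; ADSL, AHCY, AK1, SLC28A2, PDE4B, CREB1 and the NR4A genes were named after their values were seen. Upstream sequences came from RefSeq tables (9 of the 10 members matched). Alternatives were the methods' one-way analysis of variance on the 4 arrays compared, limma on those arrays, no adjustment, no fold threshold, an intensity-dependent robust prior, dropping the 30% of features with the lowest mean, a common median for the arrays, quantile normalization a further time, 1 feature per symbol and leaving out each array. The contrast of the hairpin alone with IL-13 alone was added after the data were seen.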

Additional observations from a re-analysis of the deposited data

How the results depend on the processing

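The counts and log2 fold changes given for the members, the lists and the named genes (69 values) were recomputed under 10 alternatives and with each array left out in turn. Of the 560 values under the alternatives 553 were counted as kept, and of the 552 values without one array 517 were. Kept meant the same direction and the same side of the threshold. For NT5E, outside its 2 tested contrasts, it meant the same direction and a shift smaller than its pooled SD within groups. The side of the threshold was not compared there. For the hairpin among IL-13-treated cells NT5E ran from -1.05 to -0.99 without one array, so it fell on both sides of a 2-fold change. Of the 9 members other than NT5E 0 were called in the pairwise comparisons and the mean effects, and of the 10 members 0 for the interaction, under each setting run for them. The one-way analysis of variance and limma on the compared arrays were run for the pairwise comparisons. NT5E stayed between -0.97 and -0.94 for the mean effect of the hairpin and between -0.43 and -0.40 for IL-13 without any one array.

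The one call, SLC28A3 with IL-13, was lost after a further quantile normalization (1.19, adjusted p = 0.0527 from limma), so that its transporter list then had 0 calls, and without one array the list had 0 to 1 calls. For SLC28A3 the pairwise changes of 1.43 (IL-13 in shSCR cells) and 1.29 (hairpin and IL-13 together) were past the threshold in limma without adjustment and with the intensity-dependent robust prior. The mean effect of the hairpin on ADA changed sign after the further quantile normalization (0.0020).

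Without one array 13 differences that were not called changed sign. These were IL-13 in shSCR cells for ADK (-0.016 to 0.059), and the mean effect of IL-13 for ENTPD1 (-0.036 to 0.085), PDE4D (-0.092 to 0.020) and ACPP (-0.14 to 0.095). For the mean effect of the hairpin they were ENTPD2 (-0.12 to 0.0084), ADA (-0.078 to 0.045), ADORA1 (-0.079 to 0.038), SLC29A1 (-0.12 to 0.021) and SLC28A3 (-0.085 to 0.28). SLC28A3 also did so for the hairpin without IL-13 (-0.025 to 0.70) and among IL-13-treated cells (-0.32 to 0.033), and ADORA2B for the interaction (-0.0011 to 0.29) and for the hairpin alone against IL-13 alone (-0.28 to 0.010). The cause was not tested.

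No paired analysis was possible because the columns carry a running number over the 8 arrays and not the sample numbers of the labels, and array order was not used to pair them, so the fit with a replicate block was not run. With 2 arrays a group, differences well under 2-fold are near the limit of detection. Genes near the negative controls (ENTPD1, ENTPD3, ADORA2A, mock-treated SLC28A3 and ACPP with the hairpin) have compressed differences. ENTPD1 and ENTPD3 were among the dimmest 30% of features and have no value under the alternative that drops them.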
